A study of Mus musculus with 10 samples.

Results

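The NRF2 antioxidant response genes were examined in lung RNA-seq data of an ovalbumin asthma model in mice. The set comprised 10 genes, Nfe2l2, Keap1, Slc7a11, Gclc, Gclm, Txnrd1, Srxn1, Nqo1, Hmox1 and Sod2. They were chosen by name, with earlier results of these data known. All 10 were found among the 24394 gene symbols of the deposited table, with 16 of its 34943 transcript rows that carry a symbol. Keap1 and Txnrd1 had 4 rows each and the other members 1 row each. Lungs came from female BALB/c mice, 8 weeks old at purchase, in 3 groups. Saline mice (n = 3) were controls given saline only. OVA mice (n = 3) were sensitized by injection of ovalbumin, an egg protein, with alum and then received ovalbumin through the nose, which provokes allergic airway inflammation. Herb mice (n = 4) went through the same ovalbumin protocol and were fed an ethanol extract of the seeds of Descurainia sophia, a plant of the mustard family that the study calls DSE. OVA vs. Saline therefore asks what the asthma model changed, Herb vs. OVA what differed under the extract, and Herb vs. Saline what still differed from the controls. Herb mice without ovalbumin were not analysed here, and nothing states which libraries of different groups belong together.

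NRF2, encoded by Nfe2l2, is a transcription factor that switches on genes of antioxidant defence. In unstressed cells KEAP1 holds NRF2 and passes it to an ubiquitin ligase for destruction. Oxidants and reactive plant compounds modify cysteines of KEAP1, NRF2 then accumulates, pairs with small MAF proteins and binds antioxidant response elements. Its activity is thus set mainly through the protein, so that the mRNA of Nfe2l2 is not a measure of NRF2 activity, whereas the mRNAs of its targets are read more often. In the lung this programme is known for protecting the airway lining against inhaled oxidants. The targets divide into cystine import and glutathione synthesis (Slc7a11, Gclc, Gclm), repair of oxidized protein thiols (Txnrd1, Srxn1), and quinone, haem and superoxide handling (Nqo1, Hmox1, Sod2). Sod2 is also a well-known target of NF-kappaB.

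The sequences before the start sites of the members are of interest because the members share a regulator. RefSeq promoter sequences of assembly GRCm38.p6 were matched by symbol for 8 of the 10 members, in 10 windows, and Hmox1 and Gclc were not matched. The 250 bases before each start site were searched on both strands for the core of the antioxidant response element, TGACNNNGC, for the AP-1 site, TGANTCA, and for the amino acid response element, TGATGCAA. No letter of one match was shared with another in these windows. The core element was found in 10.2% of 32851 windows of all genes, the AP-1 site in 6.75% and the amino acid response element in 0.791%. Among the members, the core element in this exact form was matched in 3 genes, Nfe2l2, Gclm and Txnrd1. Variants of the core were not searched. In Gclm it read GCACCGTCA on the printed strand, from base -134 to -126 before the start. The 4 windows below are shown because they hold the matches of Nfe2l2 itself, of a thioredoxin target with 3 start sites, of a target with 2 AP-1 matches, and of Slc7a11, the one member whose mean was not lower in OVA than in Saline. Capitals mark the matched letters.
Nfe2l2, chr2:75704664-75704913, minus strand: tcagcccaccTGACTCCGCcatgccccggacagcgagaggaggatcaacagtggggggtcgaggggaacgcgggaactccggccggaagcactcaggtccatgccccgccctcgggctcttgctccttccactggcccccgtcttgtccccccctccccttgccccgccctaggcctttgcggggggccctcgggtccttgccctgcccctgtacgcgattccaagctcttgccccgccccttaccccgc
Txnrd1, chr10:82858956-82859205, plus strand: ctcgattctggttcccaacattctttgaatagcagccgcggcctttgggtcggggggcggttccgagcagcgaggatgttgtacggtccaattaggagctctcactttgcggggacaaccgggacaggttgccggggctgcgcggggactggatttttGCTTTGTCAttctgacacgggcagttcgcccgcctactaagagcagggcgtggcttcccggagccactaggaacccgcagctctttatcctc
Srxn1, chr2:152105274-152105523, plus strand: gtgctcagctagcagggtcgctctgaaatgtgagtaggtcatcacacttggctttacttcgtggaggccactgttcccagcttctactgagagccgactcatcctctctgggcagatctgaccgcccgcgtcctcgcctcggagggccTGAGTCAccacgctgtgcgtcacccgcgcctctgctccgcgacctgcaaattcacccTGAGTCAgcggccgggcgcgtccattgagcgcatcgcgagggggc
Slc7a11, chr3:50443614-50443863, minus strand: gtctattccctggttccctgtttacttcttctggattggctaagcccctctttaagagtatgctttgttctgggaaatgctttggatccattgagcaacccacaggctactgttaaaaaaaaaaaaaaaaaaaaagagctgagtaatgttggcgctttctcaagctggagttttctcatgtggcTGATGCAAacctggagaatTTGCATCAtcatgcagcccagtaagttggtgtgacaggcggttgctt
In Nfe2l2 the match began at base -240, in Txnrd1 at base -92, in Srxn1 at bases -102 and -45, and in Slc7a11 at bases -66 and -47. A match describes letters only and says nothing about binding in these lungs, and a window without a match says nothing about the factor.

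The libraries differed in make-up before any member was considered. FPKM (fragments per kilobase of transcript, relative to all mapped fragments of the library) divides each library among its transcripts. The share of fragments on named protein-coding RefSeq rows was estimated from FPKM and GENCODE transcript lengths. It was 33.0% to 33.3% in Saline, 11.9% to 14.9% in OVA and 19.3% to 25.8% in Herb. The ribosomal precursor RNA Rn45s moved the opposite way, from 1201 to 1386 FPKM in Saline, 10014 to 13531 in OVA and 3230 to 7019 in Herb. OVA replicate 1 had the lowest estimated coding share. Coding rows without a matched length and the 31605 models without a symbol were left out, so any coding fragments there are not counted. Over all 11205 gene symbols tested, the median log2 fold change was -0.75 in OVA vs. Saline, 0.48 in Herb vs. OVA and -0.27 in Herb vs. Saline as deposited, and -0.09, 0.04 and -0.05 after each library was rescaled to a common 75th percentile. Member values are therefore given as deposited and, where tested, rescaled as well, and a difference close to these medians is one that genes in general showed. At a common sum over protein-coding transcripts these medians were 0.35, -0.12 and 0.23, and how the calls changed under this scaling and under quantile normalization is given with the counts. The part of library make-up in the members' differences was not tested beyond these scalings. Steps between the lowest values put the depth at 29800000 to 59100000 mapped reads or fragments, and which of the terms applies could not be settled. This estimate is rough, since 40.9% to 45.7% of the low values lay within 0.1 of a whole step. Gapdh, which every cell uses, was listed at 0 in 9 of 10 libraries, so a value of 0 is described only as listed at 0. In whole lung, fewer cells of a type and less RNA per cell cannot be told apart.

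As deposited, the NRF2 genes were mostly lowest in OVA, highest in Saline and between them in Herb. In OVA vs. Saline, 7 of the 9 members tested were lower at a limma adjusted p under 0.05 and none was higher, while 57.9% of all genes tested were lower by the same criterion. In Herb vs. OVA, 4 of 9 were higher and none lower, and 44.0% of all genes were higher. In Herb vs. Saline, 6 of 9 were lower and none higher, and 22.7% of all genes were lower. After rescaling, 4 of 9 members were lower in OVA vs. Saline (24.3% of all genes). In Herb vs. OVA 0 were higher (0.357% of all genes). There, 0 members and 2953 of the 11205 genes had an unadjusted limma p under 0.05 in either direction. In Herb vs. Saline 2 members were lower (9.56% of all genes). At a common protein-coding sum, Nfe2l2 was lower and Keap1 higher in OVA vs. Saline, where 4239 of all genes were higher and 987 lower, and Txnrd1 and Hmox1 turned positive without a call. On that scale 0 members were called in Herb vs. OVA, where 70 of all genes were higher and 551 lower. The 2 members at an unadjusted p under 0.05, Keap1 (-0.32) and Txnrd1 (-0.43), were on the lower side. Of all genes, 3184 passed that limit. In Herb vs. Saline 0 members were called as well, where 2065 of all genes were higher and 320 lower. The 2 members at an unadjusted p under 0.05, Nfe2l2 (-0.69) and Gclm (-0.32), were on the lower side. That limit was passed by 4179 of all genes. Quantile normalization left 3 members lower in OVA vs. Saline, where 2087 of all genes were higher and 1917 lower. It left 0 members called in Herb vs. OVA (56 of all genes higher, 101 lower) and in Herb vs. Saline (459 higher, 382 lower). At an unadjusted p under 0.05 there were 0 members in Herb vs. OVA and 3 in Herb vs. Saline. Of all genes, 2927 and 3105 passed that limit in these comparisons. The median over the 9 members was -1.28 in OVA vs. Saline, 0.35 in Herb vs. OVA and -0.76 in Herb vs. Saline as deposited, and -0.56, -0.06 and -0.49 after rescaling. Nqo1 had a mean of 0.992 FPKM, under the minimum of 1 FPKM, and was tested only without that filter. Srxn1, counted among the members called lower, passed this minimum only through its Saline libraries. OVA vs. Saline and Herb vs. OVA share the 3 OVA libraries, so that an error in these moves both comparisons in opposite directions.

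**Figure D1:**
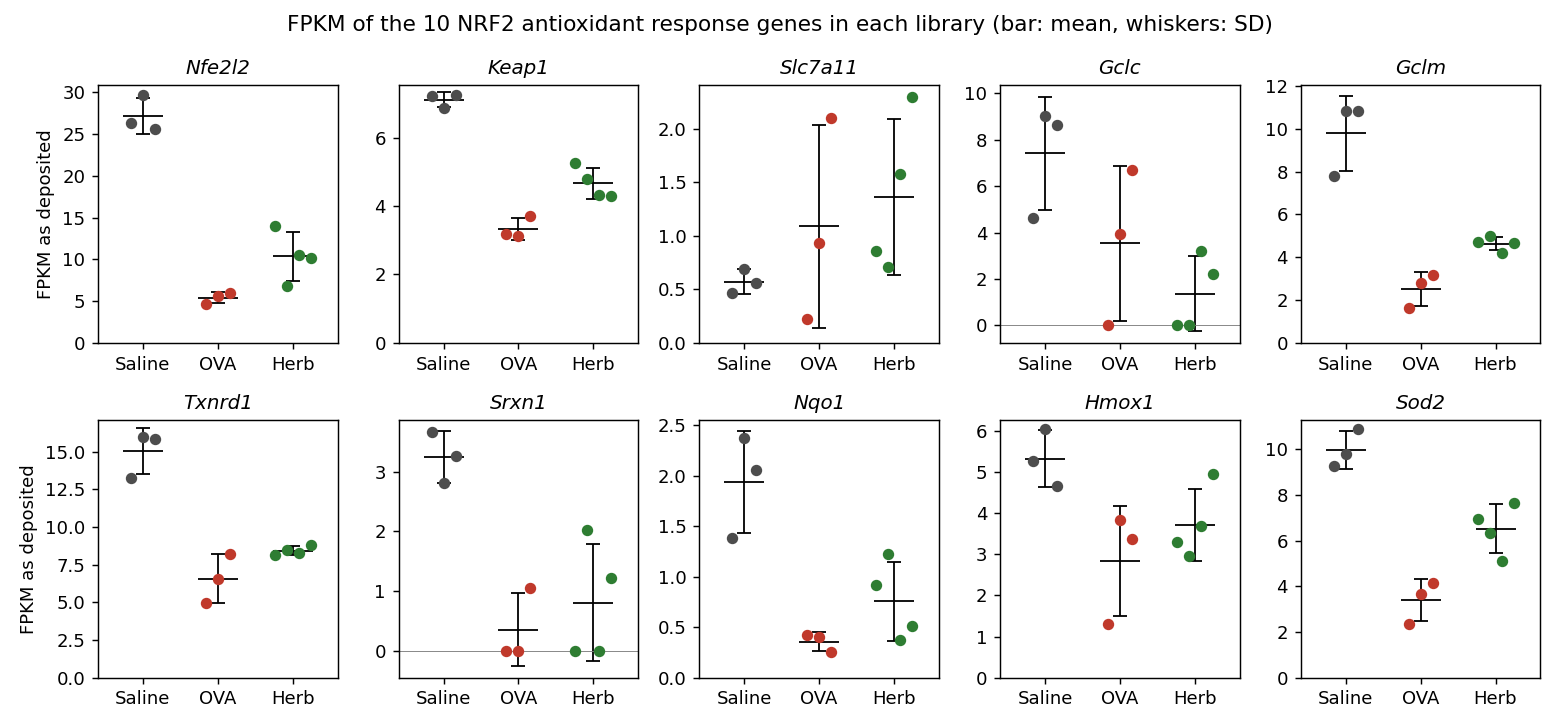
FPKM as deposited (vertical axes, linear, starting at or below 0) of each member in the 3 Saline, 3 OVA and 4 Herb libraries. Points are libraries, bars are group means and whiskers are SD. Nfe2l2, Keap1, Gclm and Sod2 showed 3 separate levels, and Slc7a11 was spread over 0.227 to 2.10 in OVA without a fall from Saline.

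Nfe2l2 (chr2:75675513-75704663, GRCm38.p6), the gene of NRF2, was the member with the highest level in the control lungs. Its FPKM was 26.4, 29.7 and 25.6 in Saline, 4.65, 5.58 and 5.97 in OVA and 14.1, 6.87, 10.5 and 10.1 in Herb. The 3 groups did not overlap, with Herb replicate 2 close to OVA and Herb replicate 1 highest within its group. The group means were 27.2 ± 2.16 (SD, n = 3), 5.40 ± 0.676 (SD, n = 3) and 10.4 ± 2.94 FPKM (SD, n = 4). The log2 fold change in OVA vs. Saline was -2.14 ± 0.22 (SE, as for all later fold changes; limma adjusted p = 0.000149) as deposited and -1.30 ± 0.24 (adjusted p = 0.0033) rescaled, and it stood 1.21 below the median of all genes on the rescaled values. This difference was called in every alternative run for it, also without any 1 library. Herb vs. OVA gave a log2 fold change of 0.80 ± 0.20 (adjusted p = 0.0139) as deposited and 0.24 ± 0.22 (adjusted p = 0.514) rescaled, with a 95% interval from -0.26 to 0.74 for the latter. Without OVA replicate 1 the deposited difference was 0.71 with an adjusted p of 0.0512. In Herb vs. Saline it was -1.34 ± 0.20 (adjusted p = 0.00802) as deposited and -1.06 ± 0.22 (adjusted p = 0.0199) rescaled, and the rescaled call was lost without Saline replicate 1 (-1.08, adjusted p = 0.0544) or Saline replicate 2 (-0.98, adjusted p = 0.0819).

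Keap1 (chr9:21229730-21239332), the inhibitor of NRF2, had summed values of 7.22, 6.87 and 7.25 FPKM in Saline, 3.18, 3.11 and 3.70 in OVA and 5.25, 4.8, 4.33 and 4.29 in Herb. No groups overlapped, and the 3 Saline libraries lay close together. As deposited its differences were -0.91 ± 0.11 in OVA vs. Saline on the log2 scale (limma adjusted p = 0.000185), 0.39 ± 0.10 in Herb vs. OVA (adjusted p = 0.0163) and -0.52 ± 0.10 in Herb vs. Saline (adjusted p = 0.0115). These stood -0.16, -0.09 and -0.25 from the median of all genes, and after rescaling they were -0.14 (adjusted p = 0.321), -0.13 (adjusted p = 0.42) and -0.27 (adjusted p = 0.0947). The rescaled 95% interval of OVA vs. Saline was -0.38 to 0.10. At a common protein-coding sum the direction turned, to 0.37 in OVA vs. Saline (adjusted p = 0.039), which was 0.02 from the median of all genes on that scale. Nfe2l2 and Keap1 thus gave unlike rescaled values in OVA vs. Saline, -1.30 and -0.14, a difference between genes that was not tested.

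**Figure D2:**
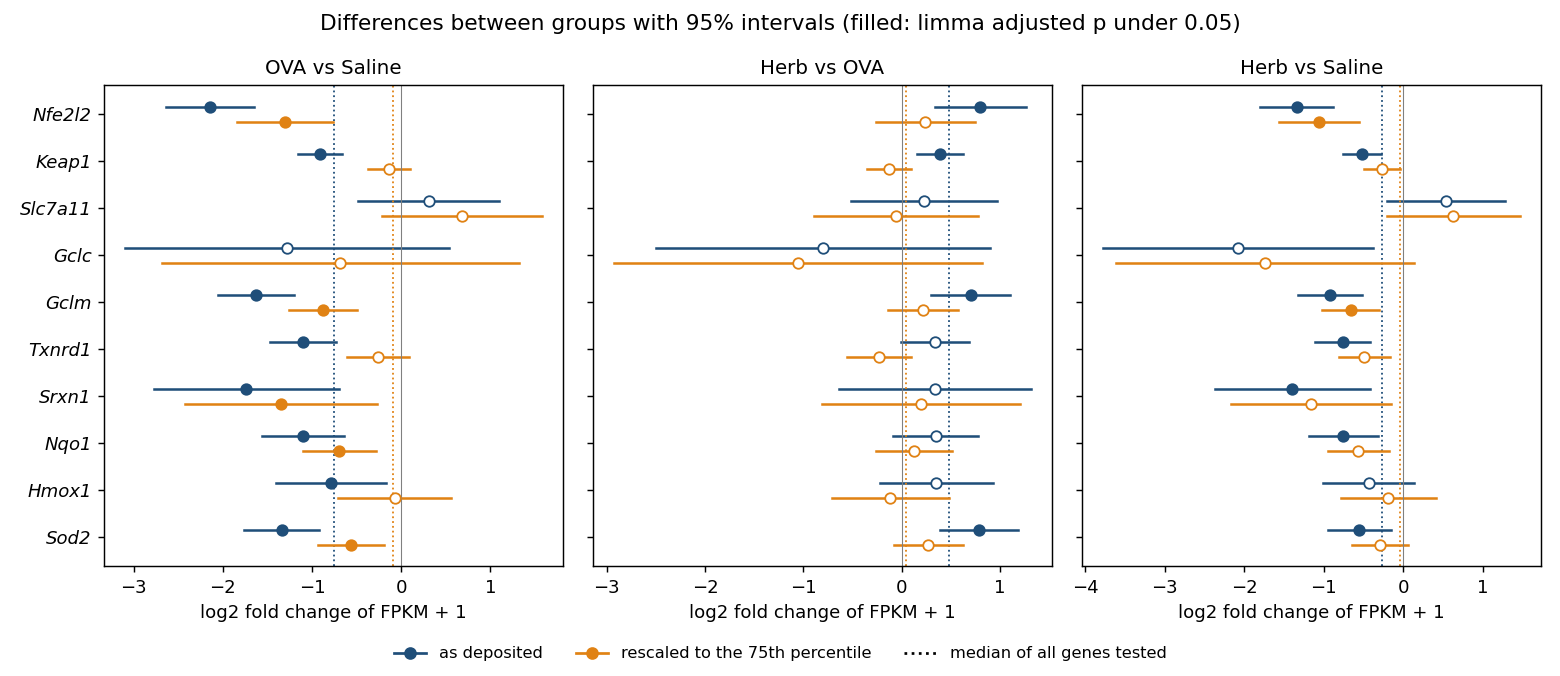
Log2 fold change of FPKM + 1 (horizontal axes) of each member in the 3 comparisons, with 95% intervals. Blue is as deposited, orange is rescaled to the 75th percentile, filled points passed a limma adjusted p under 0.05, dotted lines mark the median of all genes on each scale, and Nqo1 comes from the fit without a filter. In Herb vs. OVA 4 blue points and no orange point were filled.

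Among the genes of cystine import and glutathione synthesis, Gclm was called in all 3 comparisons as deposited, and Gclc and Slc7a11 in none. Gclm (chr3:122245487-122267215), the modifier subunit of glutamate-cysteine ligase, was at 7.77, 10.8 and 10.8 FPKM in Saline, 1.64, 2.78 and 3.18 in OVA and 4.71, 4.98, 4.21 and 4.67 in Herb. No groups overlapped and OVA replicate 1 was lowest. Its log2 fold change in OVA vs. Saline was -1.62 ± 0.19 (limma adjusted p = 0.000167) as deposited and -0.88 ± 0.17 (adjusted p = 0.004) rescaled. In Herb vs. OVA it was 0.70 ± 0.18 (adjusted p = 0.0136) as deposited and 0.22 ± 0.16 (adjusted p = 0.404) rescaled, with a 95% interval of -0.14 to 0.58. In Herb vs. Saline it was -0.92 ± 0.18 (adjusted p = 0.0106) as deposited and -0.66 ± 0.16 (adjusted p = 0.0279) rescaled. The rescaled call in Herb vs. Saline was lost without Saline replicate 2 or 3 or without Herb replicate 1, 3 or 4, with log2 fold changes between -0.69 and -0.57 and adjusted p from 0.0553 to 0.11.

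Gclc (chr9:77754535-77794489), the catalytic subunit of the same enzyme, was split within groups. Its FPKM was 4.62, 9.0 and 8.63 in Saline, 0.000463, 3.92 and 6.68 in OVA and 0.0201, 0.00805, 3.21 and 2.22 in Herb. OVA replicate 1 and Herb replicates 1 and 2 were practically without signal while their group mates had several FPKM, so that the row switched between libraries of 1 group. OVA overlapped both other groups, and Herb lay below Saline. The log2 fold change was -1.28 ± 0.80 in OVA vs. Saline (limma adjusted p = 0.195), -0.80 ± 0.75 in Herb vs. OVA (adjusted p = 0.409) and -2.08 ± 0.75 in Herb vs. Saline (adjusted p = 0.0699), and -0.68, -1.05 and -1.74 after rescaling, none called. Without OVA replicate 1 the last was -2.08 with an adjusted p of 0.0282. The table also holds 31605 assembled transcript models without a symbol, and whether fragments of Gclc lie in one of them was not tested.

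Slc7a11 (chr3:50364936-50499087), the cystine carrier xCT, was the lowest member in Saline, at 0.462, 0.695 and 0.558 FPKM, against 0.227, 0.934 and 2.10 in OVA and 0.859, 0.709, 1.58 and 2.30 in Herb. All Herb libraries lay above all Saline libraries, on both scales, while OVA spread over both groups. No difference was called. The log2 fold change was 0.31 ± 0.35 in OVA vs. Saline (limma adjusted p = 0.465), 0.23 ± 0.33 in Herb vs. OVA (adjusted p = 0.591) and 0.54 ± 0.33 in Herb vs. Saline (adjusted p = 0.245) as deposited, and 0.68, -0.06 and 0.63 rescaled. Its sign rested on single OVA libraries: OVA vs. Saline was -0.03 without OVA replicate 3, and Herb vs. OVA was -0.10 without OVA replicate 1. The rescaled 95% interval of OVA vs. Saline, -0.21 to 1.58, includes 0 and lies above the whole interval of Nfe2l2. The window of Slc7a11 held 2 matches of the amino acid response element. No core element was matched in it, nor in the windows of Keap1, Nqo1, Srxn1 and Sod2. Whether these matches bear on its level was not tested.

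Of the thiol repair genes, Txnrd1 (chr10:82833951-82897724), cytosolic thioredoxin reductase, had summed values of 13.3, 16 and 15.8 FPKM in Saline, 4.97, 6.55 and 8.20 in OVA and 8.16, 8.48, 8.26 and 8.82 in Herb. Saline lay above the rest, and OVA replicate 3 reached into the narrow range of Herb. Its log2 fold change was -1.10 ± 0.16 in OVA vs. Saline (limma adjusted p = 0.000427), 0.34 ± 0.15 in Herb vs. OVA (adjusted p = 0.0984) and -0.76 ± 0.15 in Herb vs. Saline (adjusted p = 0.012) as deposited. Rescaled values were -0.26 (adjusted p = 0.203), -0.23 (adjusted p = 0.333) and -0.49 (adjusted p = 0.0508). Without OVA replicate 3 the deposited difference in Herb vs. OVA was 0.49 with an adjusted p of 0.0307.

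Srxn1 (chr2:152105524-152111376), sulfiredoxin, which reactivates over-oxidized peroxiredoxins, was at 3.67, 2.80 and 3.27 FPKM in Saline. It was listed at 0 in OVA replicates 1 and 2 and at 1.05 in OVA replicate 3, and in Herb it was listed at 0 in replicates 1 and 3 and at 2.02 and 1.21 in replicates 2 and 4. All OVA and Herb libraries lay below Saline. The group means were 3.25, 0.351 and 0.807 FPKM in Saline, OVA and Herb. Srxn1 thus passed the minimum mean of 1 FPKM, and was tested, only through Saline, where it was high. The log2 fold change was -1.74 ± 0.46 in OVA vs. Saline (limma adjusted p = 0.00931) as deposited and -1.35 ± 0.47 (adjusted p = 0.0472) rescaled, the latter lost without any 1 Saline library, OVA replicate 1 or 2, or Herb replicate 4 (-1.41 to -1.13, adjusted p from 0.0529 to 0.134). Herb vs. OVA gave 0.34 ± 0.43 (adjusted p = 0.545), and in Herb vs. Saline -1.40 ± 0.43 (adjusted p = 0.0425) as deposited and -1.16 ± 0.44 (adjusted p = 0.107) rescaled. The deposited call in Herb vs. Saline was lost without any 1 Saline library, OVA replicate 2, or Herb replicate 1, 3 or 4 (adjusted p from 0.0514 to 0.113). Of all members this gene had the most values listed at 0, and its log2 fold changes depend on the pseudocount of 1 FPKM: with 0.1 the value in Herb vs. Saline was -3.03 (adjusted p = 0.132).

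Nqo1 (chr8:107388225-107403205), NAD(P)H quinone dehydrogenase and a standard readout of NRF2 activity, was low in these lungs. Its FPKM was 1.39, 2.38 and 2.06 in Saline, 0.423, 0.402 and 0.250 in OVA and 0.919, 1.22, 0.370 and 0.513 in Herb. OVA and Herb both lay below Saline, and 1 Herb library, replicate 3, fell within the range of OVA. In the fit without a filter the log2 fold change in OVA vs. Saline was -1.10 ± 0.20 (limma adjusted p = 0.0027) as deposited and -0.69 (adjusted p = 0.0233) rescaled, while 33.9% of the 20819 genes in that fit were lower as deposited. Herb vs. OVA gave 0.35 ± 0.19 (adjusted p = 0.242) and in Herb vs. Saline -0.75 ± 0.19 (adjusted p = 0.0376; rescaled -0.57, adjusted p = 0.0821).

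Hmox1 (chr8:75093618-75100593), haem oxygenase 1, was at 5.28, 6.04 and 4.67 FPKM in Saline, 1.31, 3.83 and 3.37 in OVA and 3.30, 2.95, 3.69 and 4.96 in Herb. OVA replicate 1 stood below the remaining OVA libraries, and Herb overlapped both groups. As deposited the log2 fold change in OVA vs. Saline was -0.79 ± 0.27 (limma adjusted p = 0.0303), a value that nearly equalled the median of all genes. The call was lost without Saline replicate 1 (-0.79, adjusted p = 0.0663), Saline replicate 2 (-0.71, adjusted p = 0.0869) or OVA replicate 1 (-0.46, adjusted p = 0.0679), and rescaled it was -0.07 (adjusted p = 0.851; 95% interval -0.71 to 0.56). Herb vs. OVA gave 0.35 ± 0.25 (adjusted p = 0.28) as deposited and -0.12 (adjusted p = 0.81) rescaled, and Herb vs. Saline -0.43 ± 0.25 (adjusted p = 0.228) and -0.19 (adjusted p = 0.651). No difference of Hmox1 was therefore called on the rescaled values.

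Sod2 (chr17:13007839-13018119), mitochondrial superoxide dismutase, was at 9.26, 9.77 and 10.9 FPKM in Saline, 2.36, 3.68 and 4.13 in OVA and 6.92, 6.35, 5.12 and 7.66 in Herb. The groups formed 3 separate levels. In OVA vs. Saline the log2 fold change was -1.34 ± 0.19 (limma adjusted p = 0.000312) as deposited and -0.56 ± 0.16 (adjusted p = 0.0237) rescaled, and the rescaled call was lost without Saline replicate 2 (-0.56, adjusted p = 0.0624), Saline replicate 3 (-0.52, adjusted p = 0.0712) or OVA replicate 1 (-0.43, adjusted p = 0.0697). Sod2 was 0.79 ± 0.17 higher in Herb vs. OVA (adjusted p = 0.00922) as deposited, a call that held without any 1 library, and 0.27 ± 0.15 (adjusted p = 0.295; 95% interval -0.08 to 0.62) rescaled. In Herb vs. Saline it was -0.55 ± 0.17 (adjusted p = 0.0457) as deposited, lost without any 1 Saline or Herb library or OVA replicate 2 (adjusted p from 0.0556 to 0.136), and -0.29 (adjusted p = 0.218) rescaled.

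Groups that did not overlap were counted as well. OVA lay below Saline in 8 members as deposited, 7 of them among the 9 tested, where 63.0% of all genes did so. After rescaling this held for 6 members, 5 of them tested. Herb lay above OVA in 4 members, Nfe2l2, Keap1, Gclm and Sod2, against 49.6% of all genes, and in none after rescaling. Herb lay below Saline in 8 members, 7 of them tested, against 36.6% of all genes. After rescaling it did so in 7 members, 6 of them tested. The 8 members of Herb vs. Saline as deposited included Gclc and Nqo1 and not Hmox1 or Slc7a11. These shares of all genes hold for the deposited values only. None was computed after rescaling, so the rescaled counts cannot be compared with genes in general.

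The order of the members by listed FPKM, which is per length, was clearest in the control lungs. Whether fragments of a member lie in the assembled models without a symbol was not tested, so the order is that of the listed values. In Saline the means ran from 27.2 FPKM for Nfe2l2 through 15.0 for Txnrd1, 9.96 for Sod2, 9.80 for Gclm, 7.42 for Gclc, 7.11 for Keap1, 5.33 for Hmox1, 3.25 for Srxn1 and 1.94 for Nqo1 to 0.572 for Slc7a11. Of the neighbours in this order, Sod2 and Gclm, Gclm and Gclc, and Gclc and Keap1 overlapped between libraries, and the other neighbours did not. In OVA Txnrd1 came first with 6.57 ± 1.61 FPKM (SD, n = 3) and Nfe2l2 second with 5.40 ± 0.676 (SD, n = 3), and every pair of neighbours overlapped. In Herb Nfe2l2 came first again with 10.4 ± 2.94 (SD, n = 4), then Txnrd1 with 8.43 ± 0.294 (SD, n = 4), and Txnrd1 and Sod2, with 6.51 ± 1.07 (SD, n = 4), were the one pair of neighbours that did not overlap.

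Single transcript rows were less stable than the sums for Txnrd1 and Keap1. The row NM_001042513 held between 14.9% and 77.5% of the Txnrd1 sum, and NM_015762 gave 0.898, 0.736 and 7.23 FPKM in Saline, 0 in all OVA libraries and at most 0.428 in Herb. In Saline replicate 3 these 2 rows exchanged places while the sum, 15.8 FPKM, stayed near that of Saline replicate 2. For Keap1, NM_001110306 was listed at 0 in 6 of 10 libraries, and NM_001110307 was listed at 0 in OVA replicate 2 and at 3.91 in Herb replicate 1, where it made up 74.6% of the sum. These rows are transcripts of the same gene that share most of their exons, and how fragments are divided among them can differ from library to library. Of the 16 member rows, 12 passed the minimum of 1 FPKM. In OVA vs. Saline 6 of them were lower (41.1% of all rows), in Herb vs. OVA 3 were higher (31.7% of all rows) and in Herb vs. Saline 2 were lower (6.26% of all rows). No Txnrd1 row was called in any comparison, and of the Keap1 rows NM_001110307 was lower in OVA vs. Saline (log2 fold change -1.32, limma adjusted p = 0.0235). After rescaling, the called rows were those of Nfe2l2, Gclm and Sod2 in OVA vs. Saline and that of Nfe2l2 in Herb vs. Saline. Of all 30194 rows tested, 4034 were lower and 3568 higher in the former, and 799 lower and 876 higher in the latter.

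**Figure D3:**
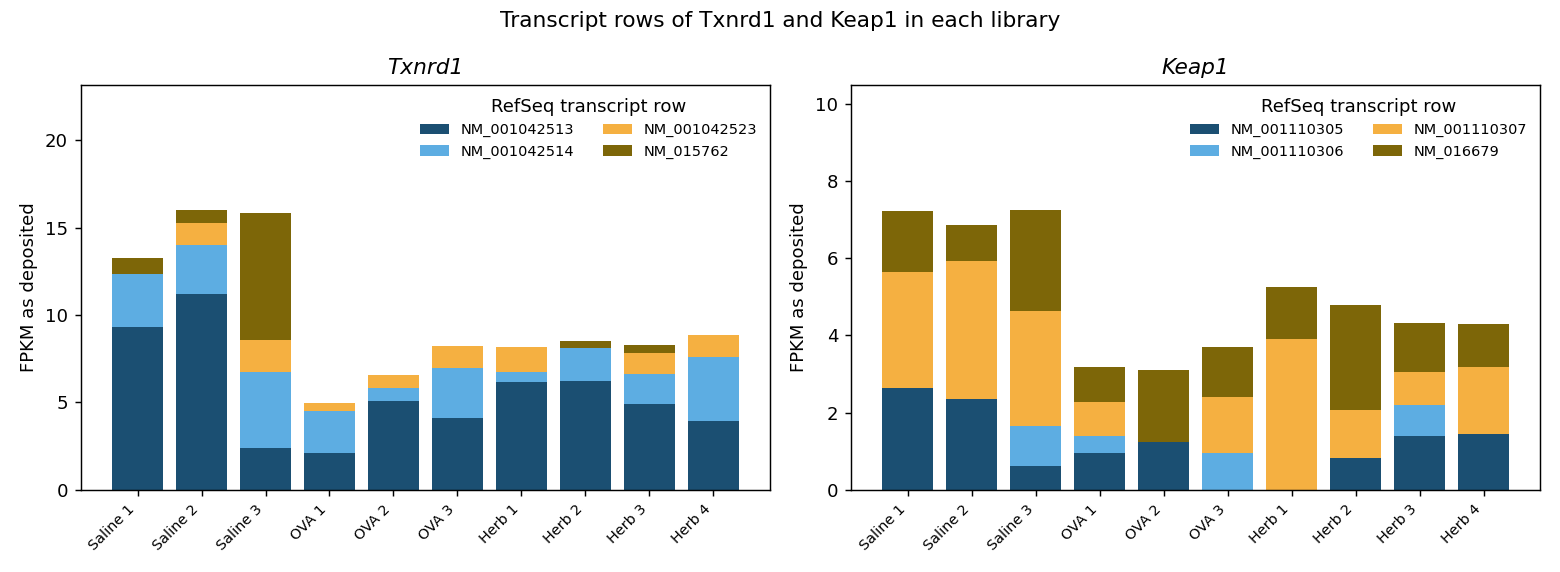
FPKM as deposited (vertical axes, from 0) of the 4 RefSeq transcript rows of Txnrd1 and of Keap1, stacked for each of the 10 libraries. The height of a bar is the gene sum. The division among rows changed between libraries of 1 group, while the Txnrd1 sums ran from 4.97 to 8.20 FPKM in OVA and the Keap1 sums from 3.11 to 3.70 FPKM.

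The wider redox network was described with lists of genes around the members. Of all genes, 57.9% were lower in OVA vs. Saline, 44.0% higher in Herb vs. OVA and 22.7% lower in Herb vs. Saline as deposited. After rescaling these shares were 24.3%, 0.357% and 9.56%. A list count close to them is one that genes in general showed, and no list was tested as a set. Among 13 tested regulators and partners of NRF2, 11 were lower in OVA vs. Saline, 8 higher in Herb vs. OVA and 5 lower in Herb vs. Saline as deposited, with 3 lower and 1 higher, 0, and 4 lower after rescaling. The list medians as deposited were -1.13, 0.62 and -0.53, against -0.75, 0.48 and -0.27 over all genes. Sqstm1, encoding p62, which takes KEAP1 to autophagy, had a log2 fold change of -2.49 in OVA vs. Saline (limma adjusted p = 0.000197; rescaled -1.63, adjusted p = 0.00286) and -1.50 in Herb vs. Saline (rescaled -1.22). Mafk, a small MAF partner of NRF2, gave -1.74 (rescaled -0.93, adjusted p = 0.0034) and in Herb vs. OVA 0.79 (rescaled 0.25, adjusted p = 0.354). Nfe2l1, a relative of NRF2 that controls proteasome genes, was 0.94 higher in Herb vs. OVA (adjusted p = 0.00716; rescaled 0.34, adjusted p = 0.195). Bach1, a repressor that competes for the same elements, was -1.04 in OVA vs. Saline as deposited and -0.21 (adjusted p = 0.12) rescaled, and is named here after its values were seen.

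For glutathione synthesis and recycling, 13 of 21 genes were lower in OVA vs. Saline, 10 higher in Herb vs. OVA and 6 lower in Herb vs. Saline, and 6 lower with 1 higher, 0 and 1 lower after rescaling. The list medians as deposited were -0.81, 0.52 and -0.36, close to the -0.75, 0.48 and -0.27 of all genes. Gpx3, the secreted glutathione peroxidase, was at 263, 207 and 283 FPKM in Saline, 15.2, 56.1 and 16.1 in OVA and 162, 176, 74.2 and 94.8 in Herb. The groups did not overlap, with log2 fold changes of -3.32 in OVA vs. Saline (rescaled -2.41, limma adjusted p = 0.00324) and 2.26 in Herb vs. OVA (rescaled 1.64, adjusted p = 0.0772). Gpx8, of the endoplasmic reticulum, gave -2.77 (rescaled -2.20) in OVA vs. Saline, and Gpx1, the cytosolic peroxidase, 1.59 in Herb vs. OVA (rescaled 0.97, adjusted p = 0.0733). Gpx8 and Mgst3, a microsomal glutathione transferase, were lower in Herb vs. Saline, at -1.70 and -1.27 on the log2 scale, and rescaled only Mgst3 of these was called (-1.0, adjusted p = 0.0229).

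All 13 thioredoxin and peroxiredoxin genes were lower in OVA vs. Saline, 10 were higher in Herb vs. OVA and 7 lower in Herb vs. Saline, and after rescaling 6 were lower and 1 higher, 1 was higher, and 5 were lower. The list medians as deposited were -1.32, 0.88 and -0.60, against -0.75, 0.48 and -0.27 over all genes. The gene called higher in Herb vs. OVA on both scales was Txnip, the inhibitor of thioredoxin, at 161, 162 and 188 FPKM in Saline, 29.5, 31.8 and 36.3 in OVA and 92.2, 106, 66.6 and 78.6 in Herb. No groups overlapped, and the log2 fold change in Herb vs. OVA was 1.35 (limma adjusted p = 0.00716) as deposited and 0.72 (adjusted p = 0.0467) rescaled. In OVA vs. Saline Txnip was at -2.36 (rescaled -1.44, adjusted p = 0.000548) and Prdx1, a peroxiredoxin and NRF2 target, at -2.42 (rescaled -1.53, adjusted p = 0.00212). Prdx1 gave 1.19 in Herb vs. OVA (rescaled 0.58, adjusted p = 0.16). Prdx6, a lung peroxiredoxin with phospholipase activity, and Prdx1 were lower in Herb vs. Saline on both scales, at -1.35 and -1.24 as deposited and -1.08 and -0.95 rescaled.

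For superoxide and peroxide removal, 7 of 8 genes were lower in OVA vs. Saline, 5 higher in Herb vs. OVA and 3 lower in Herb vs. Saline, and 4 lower, 0 and 1 lower after rescaling. The list medians as deposited were -1.49, 1.12 and -0.62, against -0.75, 0.48 and -0.27 over all genes. Cat, catalase, gave -2.57 in OVA vs. Saline (rescaled -1.69, limma adjusted p = 0.000969) and -1.32 in Herb vs. Saline (rescaled -1.04, adjusted p = 0.0155). Mt1, a metallothionein, gave -2.20 in OVA vs. Saline (rescaled -1.71, adjusted p = 0.0754), and Mt2 and Sod3, the extracellular superoxide dismutase, 1.39 and 1.26 in Herb vs. OVA (rescaled 1.06 and 0.66, neither called). Msra, which repairs oxidized methionine, was at -0.73 in Herb vs. Saline (rescaled -0.49, adjusted p = 0.113). For NADPH supply, 6 of 7 were lower, 5 higher and 2 lower, and 2 lower, 0 and 0 after rescaling. The medians of this list as deposited were -1.18, 0.82 and -0.25. Taldo1, of the pentose phosphate pathway, was at -1.91 in OVA vs. Saline (rescaled -1.07, adjusted p = 0.00251), and Idh2 at -1.20 (rescaled -0.35, adjusted p = 0.0918). Me1, malic enzyme, and Taldo1 gave 1.14 and 1.06 in Herb vs. OVA (rescaled 0.60 and 0.48, neither called), and Taldo1 and Idh2 -0.86 and -0.69 in Herb vs. Saline (rescaled -0.58 and -0.42, neither called).

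For haem and iron handling, the setting of Hmox1, 8 of 10 genes were lower in OVA vs. Saline, 6 higher in Herb vs. OVA and 4 lower in Herb vs. Saline, and 6 lower, 0 and 3 lower after rescaling. The list medians as deposited were -1.65, 0.95 and -0.71, against -0.75, 0.48 and -0.27 over all genes. Fech, which inserts iron into haem, was at -2.30 in OVA vs. Saline (rescaled -1.53, limma adjusted p = 0.000543), and Fth1, the ferritin heavy chain, at -2.29 (rescaled -1.36, adjusted p = 0.00298). Fth1 and the iron exporter Slc40a1 gave 1.36 and 1.06 in Herb vs. OVA (rescaled 0.72 and 0.65, neither called). Fech and Blvrb, a biliverdin reductase, were lower in Herb vs. Saline on both scales, at -1.25 and -1.14 as deposited and -0.97 and -0.88 rescaled. Erythroid markers moved with this list: the sum of 6 of them was 5735 to 6971 FPKM in Saline, 31.0 to 561 in OVA and 1078 to 1584 in Herb. The part of blood RNA in these differences was not tested.

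Quinone, aldehyde and carbonyl detoxification, the setting of Nqo1, was the one list with a gene called in the opposite direction as deposited. Of 15 genes, 11 were lower and 1 higher in OVA vs. Saline, 7 higher and 1 lower in Herb vs. OVA and 3 lower in Herb vs. Saline, and 6 lower with 2 higher, 1 lower, and 3 lower after rescaling. The list medians as deposited were -0.93, 0.50 and -0.35, against -0.75, 0.48 and -0.27 over all genes. The gene called in the opposite direction was Akr1b3, aldose reductase, which reduces glucose and lipid aldehydes. Its FPKM was 0.700, 0.393 and 0.527 in Saline, 2.53, 3.55 and 3.92 in OVA and 0.573, 0.122, 0.528 and 0.478 in Herb. All OVA libraries lay above all others, and Herb overlapped Saline. The group means were 0.540, 3.33 and 0.425 FPKM in Saline, OVA and Herb. Akr1b3 thus passed the minimum mean of 1 FPKM, and was tested, only through the group where it was high. Whether fragments of Akr1b3 lie in the models without a symbol was not tested. The log2 fold change was 1.48 in OVA vs. Saline (limma adjusted p = 0.000216; rescaled 2.03, adjusted p = 0.000443) and -1.60 in Herb vs. OVA (adjusted p = 0.00537; rescaled -2.05, adjusted p = 0.00157). Aldh2, mitochondrial aldehyde dehydrogenase, and Akr1a1, aldehyde reductase, were at -2.13 and -2.08 in OVA vs. Saline (rescaled -1.25, adjusted p = 0.00185, and -1.21, adjusted p = 0.12), and at 1.20 and 1.89 in Herb vs. OVA (rescaled 0.60 and 1.30, neither called). Ephx1, microsomal epoxide hydrolase, and Aldh3a1 were lower in Herb vs. Saline on both scales, at -1.19 and -1.15 as deposited.

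Of the oxidant-producing enzymes, 4 of 8 tested were lower in OVA vs. Saline, 4 higher in Herb vs. OVA and 1 lower in Herb vs. Saline, and 2 lower with 1 higher, 0, and 1 lower with 1 higher after rescaling. The list medians as deposited were -0.96, 0.72 and -0.29, against -0.75, 0.48 and -0.27 over all genes. Nox4, an NADPH oxidase of structural cells, was at 28.3, 34.5 and 29.7 FPKM in Saline, 1.46, 4.11 and 1.12 in OVA and 14.2, 11.8, 7.97 and 6.32 in Herb. The groups did not overlap, at -3.41 in OVA vs. Saline (rescaled -2.67, limma adjusted p = 0.00102), 1.83 in Herb vs. OVA (rescaled 1.37, adjusted p = 0.0733) and -1.58 in Herb vs. Saline (rescaled -1.30, adjusted p = 0.0295). Cybb, the oxidase of phagocytes, gave -1.80 in OVA vs. Saline (rescaled -0.98, adjusted p = 0.0441), and its partner Cyba 1.01 in Herb vs. OVA (rescaled 0.43, adjusted p = 0.371).

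**Figure D4:**
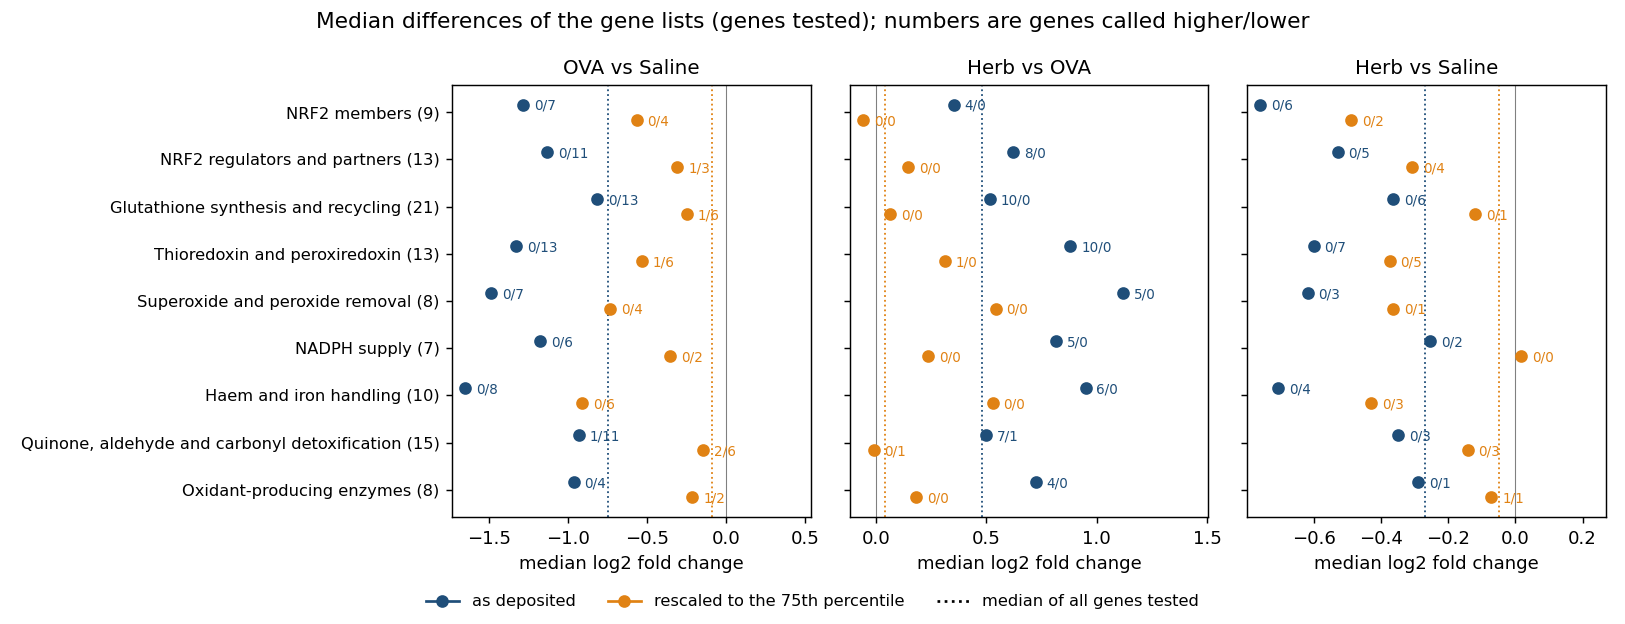
Median log2 fold change (horizontal axes) of the members and of 8 lists of redox genes in the 3 comparisons, with the number of genes tested in parentheses after each name. Blue is as deposited, orange is rescaled to the 75th percentile, dotted lines are the medians of all genes, and the figures beside points are genes called higher and lower. The members' median in Herb vs. OVA, 0.35 as deposited, lay below the 0.48 of all genes.

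Markers of the cell types of the lung moved with the groups too. Among all genes, 57.9% were lower in OVA vs. Saline, 44.0% higher in Herb vs. OVA and 22.7% lower in Herb vs. Saline as deposited. After rescaling these shares were 24.3%, 0.357% and 9.56%. Markers of alveolar type 2 cells and club cells were present in all libraries, at sums of at least 477 and 2697 FPKM. Sums of 8 alveolar type 2 markers were 3407 to 4459 FPKM in Saline, 477 to 831 in OVA and 1102 to 2012 in Herb, and 6 of 8 were lower in OVA vs. Saline on both scales, 5 higher in Herb vs. OVA as deposited and 0 rescaled, and 5 lower in Herb vs. Saline on both scales. Sums of 4 club cell markers were 13258 to 23483, 2697 to 5517 and 8018 to 12379 FPKM, with 3 lower in OVA vs. Saline (2 rescaled), 1 higher in Herb vs. OVA (0 rescaled) and 2 lower in Herb vs. Saline (0 rescaled). Sums of 8 endothelial markers were 402 to 519, 111 to 171 and 219 to 378 FPKM, with 6 lower in OVA vs. Saline (4 rescaled), 3 higher in Herb vs. OVA (0 rescaled) and 3 lower in Herb vs. Saline on both scales. Of the 5 erythroid markers tested, 4 were lower in OVA vs. Saline on both scales, 4 higher in Herb vs. OVA (0 rescaled) and 1 lower in Herb vs. Saline on both scales. Of 9 macrophage markers tested, 2 were lower in OVA vs. Saline (1 lower and 2 higher rescaled), 5 higher in Herb vs. OVA (0 rescaled), and 2 higher and 1 lower in Herb vs. Saline (4 higher and 0 lower rescaled), with a median in OVA vs. Saline of -0.47 as deposited and 0.29 rescaled. Their sums over 12 genes, 1217 to 1393, 135 to 377 and 435 to 978 FPKM, consisted mostly of Lyz2, with means of 1244, 174 and 632 FPKM. Markers at lower levels were mixed. Itgax had means of 6.68, 13.8 and 18.4 FPKM and C1qa of 6.62, 7.93 and 19.4 in Saline, OVA and Herb. Cd68, at means of 9.56, 2.81 and 4.36 FPKM, and Mertk, at 6.55, 3.85 and 3.86, were highest in Saline. Csf1r was at 0.158 FPKM or less in Saline and listed at 0 in the other libraries. Sums of 8 neutrophil markers were 43.3 to 489, 10.2 to 38.3 and 45.8 to 138 FPKM, with 3 of 7 lower in OVA vs. Saline (2 rescaled), 3 higher in Herb vs. OVA (1 rescaled) and 1 higher in Herb vs. Saline on both scales. Sums of 6 eosinophil markers stayed between 1.77 and 4.70 FPKM in all libraries, and the 1 tested, Siglecf, was lower in OVA vs. Saline on both scales and in Herb vs. Saline as deposited. The untested eosinophil marker Prg2 was listed at 0 in all Saline libraries and was at 1.25, 1.65 and 0.876 FPKM in OVA and at 0.977, 0, 0.732 and 2.14 in Herb. Ccr3, also not tested, had means of 0.0623, 0.176 and 0.201 FPKM in Saline, OVA and Herb. Siglecf went the other way from Prg2 and Ccr3, with means of 3.84, 0.931 and 1.67 FPKM. The study counted more eosinophils, neutrophils and macrophages in the lavage fluid of OVA mice than of saline controls. It reported fewer inflammatory cells with the extract than in untreated asthmatic mice. Those are cell counts in lavage fluid, a measure unlike FPKM of lung RNA. The part of these cell types in the members' differences was not tested.

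Finally, the genes whose pattern over the 10 libraries was most like that of each member were sought, by the root mean square difference of log2(FPKM + 1) on the rescaled values after centring. For Nfe2l2 these were Slco4c1 (0.206), Gstp1 (0.212) and Prrg1 (0.221), against a median difference of 0.673 over all genes. Gstp1 was at mean FPKM of 19.8 in Saline, 4.45 in OVA and 7.35 in Herb as deposited. For Hmox1 they were Hist1h3e (0.148), Med10 (0.160) and Mrpl36 (0.173), against 0.463. The nearest gene was Zbtb11 for Keap1 (0.0434), Brcc3 for Gclm (0.0762), Rtfdc1 for Sod2 (0.0743), Asns for Txnrd1 (0.0879), Sucla2 for Nqo1 (0.102), Atf3 for Slc7a11 (0.121) and Pou2f1 for Srxn1 (0.330). For Gclc the nearest gene, Tuft1, was still 0.656 away, the poorest likeness of all members. Atf3, selected for its likeness to Slc7a11, also had its lowest mean in Saline. As deposited it was 1.57 FPKM there, 2.24 in OVA and 2.88 in Herb.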

How the data were processed

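Lung RNA of 10 mice was sequenced, and each library's group came from its label. The authors deposited 1 table of FPKM with 1 row per transcript. The submitters' processing notes name cutadapt 1.10, HISAT2, StringTie 1.3.3b, edgeR 3.16.5 and mm10. The study's methods describe alignment with HISAT2, FPKM from ballgown and the authors' test of counts with another edgeR version. The deposited FPKM were summed per gene symbol. Differences were tested on log2(FPKM + 1) computed from the deposited values with limma 3.58.1 in R 4.3.3 (lmFit, eBayes with an intensity trend, all 10 libraries, 3 group means), over symbols with a mean of at least 1 FPKM, with Benjamini-Hochberg adjustment and a call at an adjusted p under 0.05. For genes with low values this scale makes a change look smaller than it was. Alternatives covered scaling (75th percentile, sum over protein-coding rows, quantiles), pseudocount, filter, trend, replicate block, the highest row per gene, and each library left out. These 3 were added after seeing the data: Nqo1 without a filter and rescaled, leaving out each library for members called after rescaling, and member rows rescaled. The members and lists were chosen with earlier results of these data known. Named genes were all members, in each pathway list and comparison the 2 called genes with the largest positive and negative log2 fold change whose groups did not overlap, and the nearest gene of each member (3 for Nfe2l2 and Hmox1). Bach1 and single cell type markers were named after their values were seen. The procedure was tested on simulated data without a difference in make-up between libraries, so that test does not bear on the scaling. Positions are those of GRCm38.p6. Python 3.11.15 with pandas 2.3.3, numpy 2.4.6 and matplotlib 3.10.9 was used.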

Additional observations from a re-analysis of the deposited data

How the results depend on the processing

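The counts of members called depended on the scaling between libraries. From 7 in OVA vs. Saline, 4 in Herb vs. OVA and 6 in Herb vs. Saline as deposited, they became 4, 0 and 2 at the 75th percentile, 2, 0 and 0 at a common protein-coding sum, and 3, 0 and 0 under quantile normalization. At an unadjusted p under 0.05 the counts in Herb vs. OVA were 0, 2 and 0 under these scalings, and in Herb vs. Saline 2 at the protein-coding sum and 3 under quantile normalization, by limma, the one tool run. Over all genes these counts were 2953, 3184 and 2927 in Herb vs. OVA, and 4179 and 3105 in Herb vs. Saline. The count in Herb vs. Saline was 3 with the highest row per gene. Rows called went from 6, 3 and 2 to 3, 0 and 1 at the 75th percentile. Over all genes, calls higher and lower in OVA vs. Saline were 368 and 6485 as deposited, 1929 and 2727 at the 75th percentile and 4239 and 987 at the protein-coding sum, in Herb vs. OVA 4932 and 50, 40 and 43, and 70 and 551, and in Herb vs. Saline 372 and 2549, 623 and 1071, and 2065 and 320. Under quantile normalization these calls were 2087 and 1917, 56 and 101, and 459 and 382. Leaving out 1 library gave 6 to 7, 3 to 5 and 4 to 7 members. Nfe2l2 in OVA vs. Saline was called under all of its alternatives, from -2.32 to -0.73.

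Directions turned for the following log2 fold changes. At the protein-coding sum, Keap1 was 0.37 (adjusted p = 0.039), Txnrd1 0.30 and Hmox1 0.41 in OVA vs. Saline, Keap1 -0.32, Slc7a11 -0.16, Txnrd1 -0.43 and Hmox1 -0.29 in Herb vs. OVA, and Keap1 0.055, Hmox1 0.12 and Sod2 0.046 in Herb vs. Saline. Under quantile normalization, Txnrd1 was 0.11 and Hmox1 0.00069 in OVA vs. Saline, and Keap1 -0.16, Slc7a11 -0.14, Txnrd1 -0.34 and Hmox1 -0.14 in Herb vs. OVA. At the 75th percentile, Keap1 was -0.13, Slc7a11 -0.058, Txnrd1 -0.23 and Hmox1 -0.12 in Herb vs. OVA. Leaving out 1 library in turn, Slc7a11 ranged from -0.026 (without OVA replicate 3) to 0.64 in OVA vs. Saline and from -0.10 (without OVA replicate 1) to 0.57 in Herb vs. OVA. The cause was not tested.

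Nothing states that the replicate numbers pair the samples. Deviations of same-numbered libraries of different groups had r from -0.00869 to 0.0953. Of these pairs 0 of 9 exceeded 0.1, against 2 of 24 pairs with other numbers. With 3 or 4 libraries a group, such values cannot decide whether the numbers carry a weak shared effect. With a replicate block the counts were 7 in OVA vs. Saline, 3 in Herb vs. OVA and 4 in Herb vs. Saline, and with the block at the 75th percentile 3, 0 and 1, where Keap1 was -0.12, Slc7a11 -0.25, Txnrd1 -0.28 and Hmox1 -0.26 in Herb vs. OVA. With the block, Nfe2l2 in Herb vs. OVA had an adjusted p of 0.0514 and Gclc in Herb vs. Saline one of 0.0421. For the highest row, the replicate block and the libraries left out, calls over all genes were not counted. Depth was only estimated, and 3 or 4 libraries a group limit what can be called.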
